A study of Mus musculus with 12 samples.

Results

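Chemokine ligands and chemokine receptors, including the atypical receptors Ackr1 to Ackr4 and the chemerin-binding receptor Ccrl2, were taken by gene symbol from 2 RNA sequencing tables of mouse hearts. The symbol rule found 64 genes of 46983 in each table. Of these, 40 were ligands (23 CC, 15 CXC, 1 CX3C and 1 XC), 22 were receptors and 2 were pseudogenes. Each heart was divided into cardiomyocytes (CM) and all other cells (NonCM). Control mice carried MCM/+, and the other mice carried MCM/+ together with Wls fl/fl, all on a BL6/C57 background. MCM usually stands for MerCreMer, a tamoxifen-dependent Cre recombinase, whose promoter the labels do not name. All mice, controls included, were given tamoxifen in 3 doses between postnatal days 1 and 3 and a myocardial infarction on postnatal day 2. Tissue was taken 2 weeks after surgery, although the labels call the cells adult. Per the series text 3 hearts were used per condition, and there are 3 libraries in each of the 4 groups. Wls (Wntless) carries Wnt proteins to the cell surface, so the design asks what the muscle cells and the other cells of an injured neonatal heart express when Wls is targeted.

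Chemokines are small secreted proteins that direct the movement of leukocytes through G protein-coupled receptors. Inflammatory chemokines are induced after injury, with CXC ligands such as Cxcl1 and Cxcl2 drawing neutrophils through Cxcr2 and CC ligands such as Ccl2 drawing monocytes through Ccr2. Homeostatic chemokines such as Cxcl12 are made without injury and hold cells in place through Cxcr4. Atypical receptors bind chemokines without a migration signal and clear them. In the heart after infarction, macrophages, monocytes, fibroblasts and endothelial cells are all known sources.

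Many of these genes lie in tight groups on the mouse chromosomes, and the sequences just before the start of 5 of them are printed because the results below turn on Ccl6, Ccl9 and Cxcl1, while Cxcl2 and Cxcl3 are the near neighbours of Cxcl1 in family and position. Each is 150 bases long, ends at the base before the RefSeq transcript start on GRCm38.p6, and runs 5′ to 3′ on the gene's own strand. Capitals mark matches to the kappaB consensus, the binding motif of NF-kappaB factors. The stretches are chr5:90891095-90891244, chr5:90903749-90903898 and chr5:90785951-90786100 on the plus strand and chr11:83578637-83578786 and chr11:83593088-83593237 on the minus strand.
Cxcl1: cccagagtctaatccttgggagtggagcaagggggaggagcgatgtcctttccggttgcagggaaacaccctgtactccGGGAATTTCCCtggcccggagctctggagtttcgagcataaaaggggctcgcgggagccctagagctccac
Cxcl2: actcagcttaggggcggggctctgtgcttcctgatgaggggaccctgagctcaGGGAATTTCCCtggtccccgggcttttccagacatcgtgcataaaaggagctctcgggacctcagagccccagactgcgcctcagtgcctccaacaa
Cxcl3: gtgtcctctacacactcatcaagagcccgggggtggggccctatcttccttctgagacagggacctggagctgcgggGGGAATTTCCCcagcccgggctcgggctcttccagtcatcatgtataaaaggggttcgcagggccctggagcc
Ccl9: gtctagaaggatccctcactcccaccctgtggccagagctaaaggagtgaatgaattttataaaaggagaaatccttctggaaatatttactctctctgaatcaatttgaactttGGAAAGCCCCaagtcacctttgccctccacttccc
Ccl6: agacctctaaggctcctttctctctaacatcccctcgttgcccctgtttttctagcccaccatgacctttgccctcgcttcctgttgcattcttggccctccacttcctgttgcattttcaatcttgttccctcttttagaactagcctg

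The 3 Cxcl genes carry the same 11 letters, in which a match on the plus strand starts 71 bases before the start in Cxcl1, 97 in Cxcl2 and 73 in Cxcl3 and overlaps a match on the other strand by all but 1 base. Ccl9 carries its match on the other strand, 35 bases before the start, and Ccl6 holds none of these letters in this window or anywhere between 250 bases before and 50 after the start. Of the 64 genes, 47 had a RefSeq promoter spanning those limits, with 56 promoters in all, and 11 of these promoters held the consensus on either strand, against 4.505% of all 32851 promoters. On both strands, the AP-1 letters TGANTCA were found in 10 of the 56 (7.808% of all promoters) and the Stat letters TTCNNNGAA in 3 (8.298%). A match is a description of letters and not a measured binding site, and no match says only that these letters are not in the window.

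Values are normalized read counts, which are gene counts divided by a size factor of each library within its table. Libraries held 1160146 to 10281214 recovered reads, and the shallowest, NonCM control replicate 1, was alone under 5171769, so that 1 read there equals a value of 5.54. In each group the profile of replicate 3 lay close to a weighted mean of replicates 1 and 2, with residuals of 0.992 to 1.04 times counting noise against 1.11 to 1.67 for replicates 1 and 2. Replicate 3 therefore may not be independent of the other replicates, results are given with and without it, and p-values measure only the spread between these libraries. Wls itself was 243, 201 and 210.2 in the CM control libraries and 91.6, 57.3 and 93.9 with Wls fl/fl. It fell by 1.45 (SE 0.17) on the log2 scale in CM (limma, adjusted p = 0.00389), while in NonCM it averaged 403 ± 26.9 against 332 ± 21.4 (SD, n = 3 each, limma adjusted p = 0.0831). Cardiomyocyte marker genes took 10.6% to 10.7% of the values in CM control and 7.01% to 7.67% in NonCM control, so the NonCM fraction also held cardiomyocyte RNA. Macrophage markers took 0.00654% to 0.00826% in CM control and 0.125% to 0.161% in NonCM control. In such bulk samples, fewer cells of a type and less RNA per cell cannot be told apart.

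In control hearts most chemokine and receptor genes that could be tested stood at higher levels in the NonCM fraction. On a common scale over all 12 libraries, reads per 1000000 reads (RPM), 24 genes were tested (Ccl3 and Cxcl13 were too low over both fractions), and 19 were called at an adjusted p under 0.05, all 19 higher in NonCM (edgeR quasi-likelihood test; 28.7% of all genes tested were called higher in NonCM). The smallest of these differences was 0.50 on the log2 scale, for Ccrl2. Cxcl12 and its scavenger Ackr3 were among the 5 not called. The filter used the mean over all 12 libraries, so a gene could pass it through NonCM reads alone. Of the 24 genes, 12 had a mean value of 10 or more in both fractions. Among these, Ackr4, Ccl6, Ccl9, Ccrl2, Cxcl1, Cxcl16 and Cxcr4 were called. The others passed only through NonCM, such as Ccl24 with 3 reads in CM, and all of them were called higher there.

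The myeloid ligand Ccl9 averaged 32.1 ± 3.24 RPM in NonCM control and 1.75 ± 0.762 RPM in CM control (SD, n = 3 each), a difference of 4.21 on the log2 scale (edgeR adjusted p = 4.1e-11). Its neighbour Ccl6 averaged 35.7 ± 5.25 against 2.26 ± 0.389, a difference of 4.01 (edgeR adjusted p = 2.6e-13). For both genes every NonCM control library lay above every CM control library. Pf4 (platelet factor 4, made by megakaryocytes and also by tissue macrophages) differed by 3.72, the monocyte receptor Ccr2 by 3.84, Ccr1 by 3.71 and the eosinophil attractant Ccl24 by 3.84. Smaller differences were seen for Cxcl1 (2.25), Cxcl16, the ligand of Cxcr6 (2.28), the chemokine scavengers Ackr4 (2.96) and Ackr2 (2.55) and the Cxcl12 receptor Cxcr4 (1.13).

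Cxcl12 averaged 214 ± 14.9 RPM in NonCM control and 218 ± 10.7 RPM in CM control, a difference of -0.00 on the log2 scale (edgeR adjusted p = 0.986). Ackr3 averaged 109 ± 22.7 and 112 ± 21.8, a difference of -0.13 (edgeR adjusted p = 0.383). The libraries of the 2 fractions overlapped for both genes. Which cells of each fraction held this RNA was not tested. Cx3cl1, the membrane-bound ligand of Cx3cr1, differed by 0.04, Cxcr5, the B cell receptor for Cxcl13, by -0.21, and the Ccr10 ligand Ccl27a by -0.64 (edgeR adjusted p = 0.0773), and none of these 3 was called. Without scaling beyond library size the median of all genes moved from -0.00 to 0.24 and 20 of the 24 genes were called higher in NonCM, with Cxcl12 at 0.24 among them (43.2% of all genes tested were then called higher). Leaving out 1 library at a time gave 17 to 19 genes called higher in NonCM, with 17 without NonCM control replicate 3 (25.8% of all genes). Without CM control replicate 2, 19 genes were called higher (27.6%) and Ackr3 was called lower (-0.27, edgeR adjusted p = 0.0342). Without CM control replicate 1, 18 were called higher (26.7%) and Ccl27a was called lower (-0.80, edgeR adjusted p = 0.0475). Without replicate 3 of all 4 groups 18 were called, all higher (22%).

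**Figure D1:**
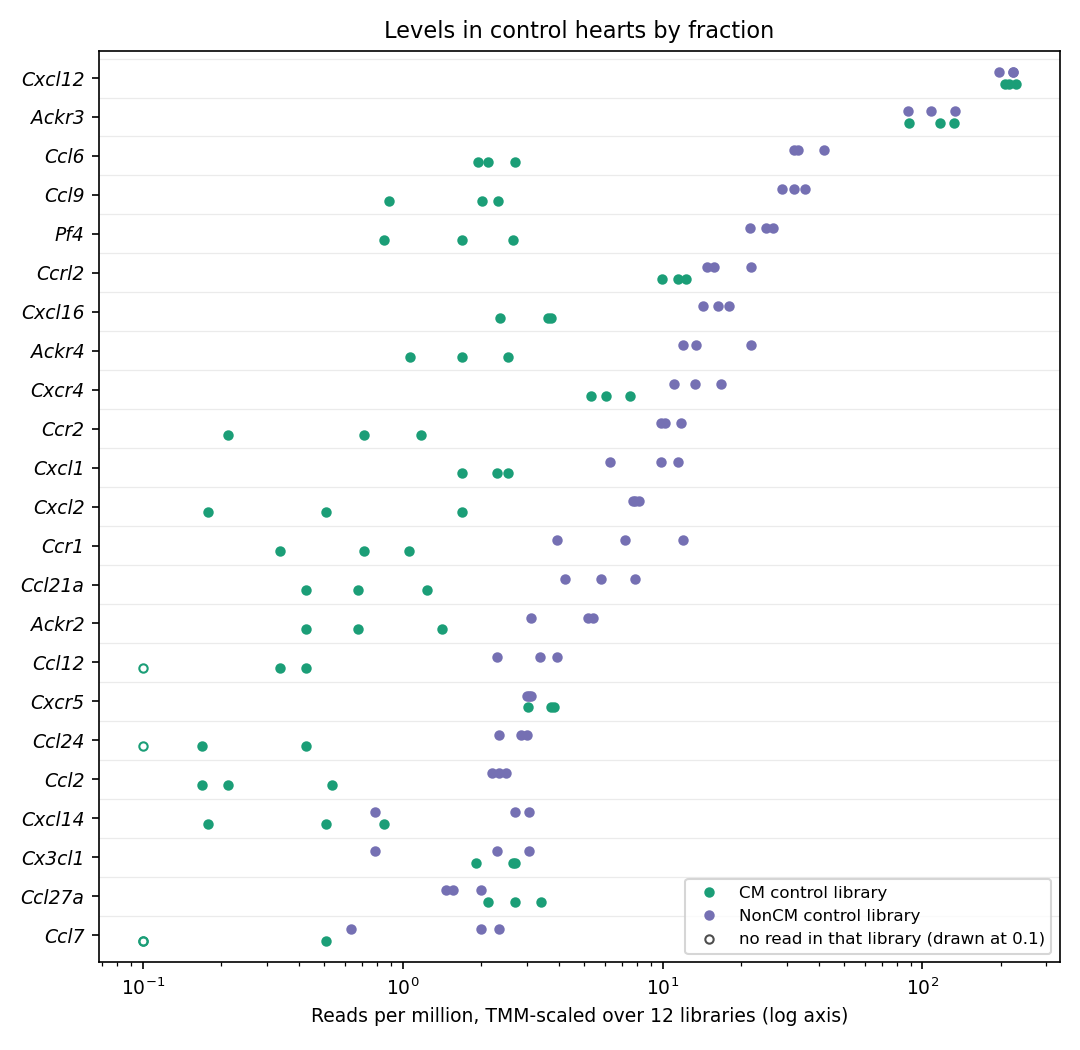
Level in RPM (log axis, scaled by TMM over 12 libraries) of 23 tested chemokine and receptor genes in each control library, CM in green and NonCM in purple; open points mark libraries with no read. Cxcl12 (197 to 229) and Ackr3 (87.8 to 133) overlap between fractions, while Ccl6 and Ccl9 lie at 28.9 to 41.7 in NonCM and at or under 2.7 in CM.

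Levels of different genes were compared only per kilobase of exon. In NonCM control libraries Pf4 stood at 244 (range 219 to 261), Ackr3 at 235 (189.98 to 281), Cxcl12 at 189 (171 to 198) and Ccl6 at 143 (127 to 168) normalized reads per kilobase, and Ccl9 followed at 75.8 (68.7 to 84.2). The ranges of Pf4 and Ackr3 overlapped, as did those of Ackr3 and Cxcl12, whereas Ccl6 and Ccl9 were each separated from the genes above them. Cxcr4, Ccl21a, Ccrl2, Ccl12, Cxcl16 and Cxcl1 followed with means of 54.6 to 35.4 and overlapping neighbours, and Cx3cl1 was lowest at 3.76. In CM control libraries Ackr3 (194) and Cxcl12 (154) led, and every other tested gene had a mean of 25.01 or less. Ccl27a and Ccl21a share 44.98% and 71.6% of their 50-base stretches with near-identical copies, so their counts are uncertain.

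In the NonCM fraction 3 chemokine ligands rose in Wls fl/fl hearts: the myeloid CC ligands Ccl6 and Ccl9 and the neutrophil attractant Cxcl1. Their means were 1.89, 1.66 and 2.03 times the control means. No receptor was called by limma, and no gene fell. The receptors called by edgeR included the scavengers Ackr2 and Ackr4 (edgeR adjusted p = 0.0113 and 0.0024). Of the 64 genes, 26 had a mean value of 10 or more and were tested, so 3 of 26 were called, against 4.51% of all 13271 genes tested (2.47% called higher). The 26 are not all members of the family, and Ccl3 and Cxcl13 passed the filter only through the Wls fl/fl libraries, with control means of 6.28 and 5.89. Changes below are log2 differences, Wls fl/fl minus control, of limma on log2(value + 1), with Benjamini-Hochberg adjustment over all genes tested. For low genes these values can differ from those of edgeR in either direction, as for Cxcl13 (1.71 by limma, 2.44 by edgeR) and Cxcl14 (1.38 by limma, 0.91 by edgeR).

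Ccl6 (ENSMUSG00000018927.3, GENCODE M21 on GRCm38, chr11:83587882-83593087, minus strand) encodes a CC chemokine of macrophages that acts through Ccr1. Control libraries held 227, 302 and 240.4 and Wls fl/fl libraries 514, 463 and 477, in replicate order here and below. Every Wls fl/fl library lay above every control library, by a clear gap. The change was 0.92 (SE 0.11, limma adjusted p = 0.00293). Ccl6 stayed called whichever single library was left out, with limma adjusted p between 2.1e-05 and 0.0369. With replicate 3 left out in both genotypes, it was not called by limma (0.89, adjusted p = 0.219) and was called by edgeR (0.76, adjusted p = 0.0425).

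Ccl9 (ENSMUSG00000019122.8, chr11:83572919-83578636, minus strand) lies next to Ccl6 and encodes another myeloid ligand of Ccr1. It stood at 227, 256 and 209 in control against 458, 315 and 374 with Wls fl/fl. The groups did not overlap, and Wls fl/fl replicate 1 was highest. The change was 0.71 (SE 0.13, limma adjusted p = 0.0221). Omitting control replicate 3 ended the call (limma adjusted p = 0.0982), as did omitting replicate 1 (0.056) or 3 (0.13) of the Wls fl/fl group. It was not called either with both replicates 3 left out (0.432 by limma, 0.188 by edgeR).

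Cxcl1 (ENSMUSG00000029380.11, chr5:90891241-90893115, plus strand) encodes a ligand of Cxcr2 that draws neutrophils. Control values were 44.3, 83.1 and 71.7, Wls fl/fl values were 120.2, 144 and 140.5, and the groups did not overlap. The lowest value, in control replicate 1, rests on 8 reads. The change was 1.06 (SE 0.21, limma adjusted p = 0.0276). Omitting control replicate 3 (limma adjusted p = 0.081) or replicate 1 (0.0679), 2 (0.145) or 3 (0.162) of the Wls fl/fl group ended the call. With both replicates 3 left out it was not called (0.399 by limma, 0.157 by edgeR). Without the shallow control replicate 1 the change was 0.79 (limma adjusted p = 0.000497).

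**Figure D2:**
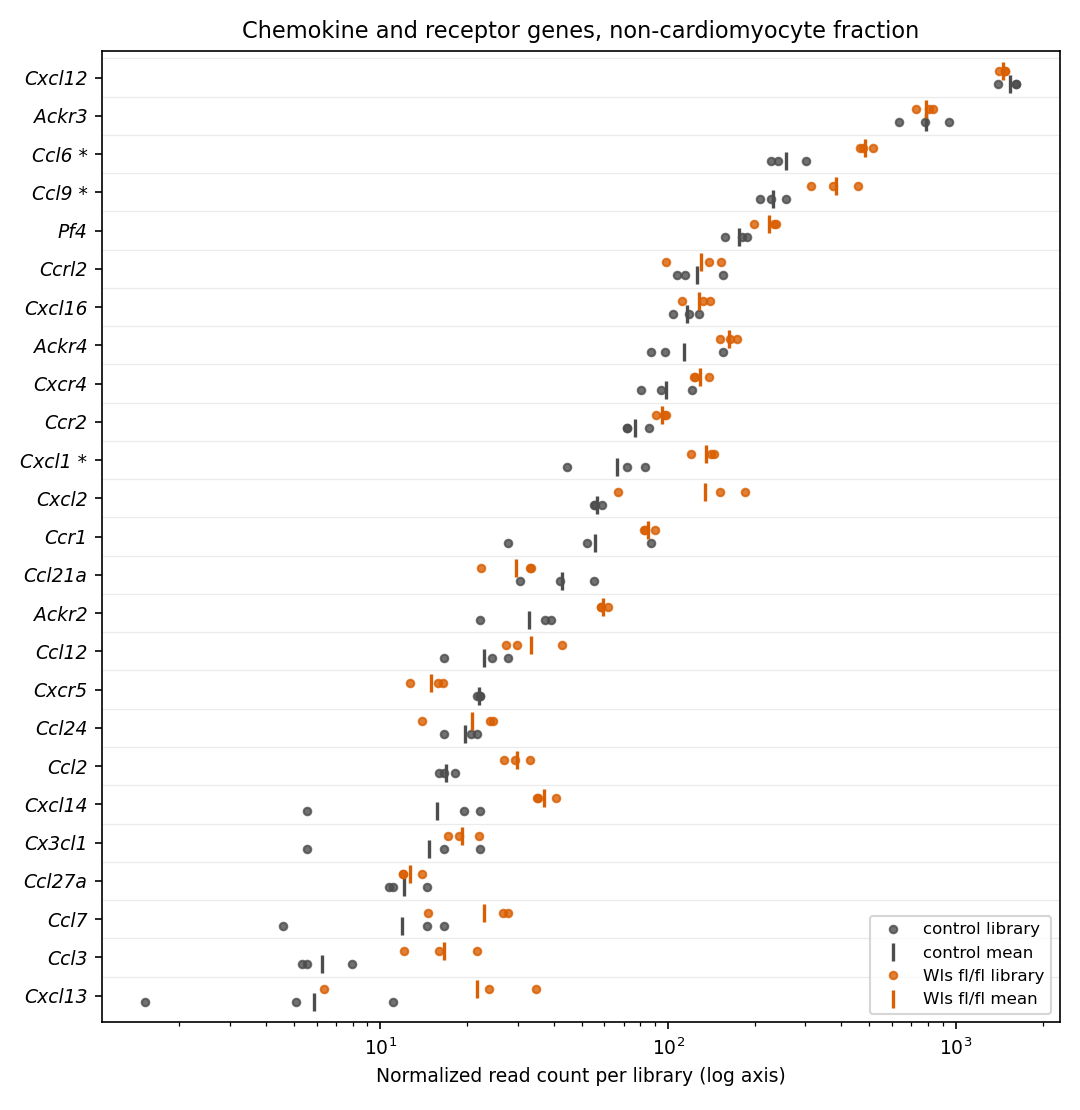
Normalized read count (log axis) of 25 tested genes in each NonCM library, ordered by control mean, with control in grey, Wls fl/fl in orange, vertical ticks for group means and asterisks for genes called by limma. The Wls fl/fl points of Ccl6 (463 to 514) lie above all 3 control points (227 to 302), while the points of Cxcl12 and Ackr3 overlap.

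Cxcl2, the second Cxcr2 ligand of this neighbourhood, was 55.4, 55.7 and 58.7 in control against 66.8, 184 and 151 with Wls fl/fl. The control values were nearly equal, although that of control replicate 1 rests on 10 reads. The Wls fl/fl values were spread widely, with replicate 1 close to control. The change was 1.11 (SE 0.31, limma adjusted p = 0.0852) and was not called. It was called by edgeR (1.22, adjusted p = 0.0164) and not by limma-voom (adjusted p = 0.0762). Cxcl3 shares 4.29% of its 50-base stretches with Cxcl2 and had 12 reads over the 6 libraries. Cxcr2, the receptor for these ligands, had 0, 2 and 7 reads in control and 7, 8 and 12 reads with Wls fl/fl and was not tested. Its 0 is in the shallow control replicate 1, and after normalization the groups overlapped (0, 1.53 and 5.07 against 4.45, 5.32 and 8.97).

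Ccl2, the chief monocyte attractant, was 16.6, 16.0 and 18.1 in control against 33.1, 29.3 and 26.9 with Wls fl/fl. The groups did not overlap. The change was 0.78 (SE 0.22, limma adjusted p = 0.0884). The other Ccr2 ligands gave 1.01 for Ccl7 and 0.52 for Ccl12, with overlapping groups and limma adjusted p of 0.286 and 0.333. Ccl3, a ligand of Ccr1, was 5.54, 5.34 and 7.97 against 12.1, 16.0 and 21.7, with a change of 1.25 (limma adjusted p = 0.0978, edgeR adjusted p = 0.0319). Its neighbour Ccl4 was not tested, with 0, 4 and 6 reads in control and 12, 20 and 12 reads with Wls fl/fl. The 0 is in the shallow control replicate 1, where 1 read equals a value of 5.54.

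Among the other ligands, Pf4 was 188, 181 and 158 against 238, 199 and 234, with no overlap and a change of 0.35 (limma adjusted p = 0.105). Cxcl14, a ligand made by stromal and epithelial cells, was 5.54, 22.1 and 19.6 against 40.7, 35.3 and 35.1, a change of 1.38 (limma adjusted p = 0.123) in which control replicate 1 held 1 read. Cxcl13, the B cell attractant, was 11.1, 1.53 and 5.07 against 6.36, 34.6 and 23.9, with overlapping groups (1.71, limma adjusted p = 0.227). None of these 3 was called by limma, but edgeR called Pf4, Cxcl14 and Cxcl13 (edgeR adjusted p = 0.0192, 0.0173 and 0.0263). With limma-voom Pf4 and Cxcl14 were called (adjusted p = 0.0222 and 0.0245) and Cxcl13 was not (0.106). Cx3cl1 was at 0.54 by limma and 0.07 by edgeR, and its control replicate 1 held 1 read (value 5.54). Cx3cl1, Cxcl16 (0.13), Ccl27a (0.07) and Ccl24 (0.05) had overlapping groups, and so had Ccl21a, the lymphatic ligand of Ccr7, at -0.49 (limma adjusted p = 0.351).

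Cxcl12, the ligand of Cxcr4, was 1397, 1620 and 1613 in control against 1478, 1412 and 1486 with Wls fl/fl, and the groups overlapped. The change was -0.08 with a 95% interval of -0.23 to 0.07. Ackr3 was 942, 636 and 779.96 against 829.9, 729 and 804, with a change of 0.02 and an interval of -0.26 to 0.30. Both upper bounds lie under the lower bound of the interval for Ccl6, 0.68.

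None of the 5 conventional receptors tested was called by limma. Ccr2 was 72.1, 85.4 and 71.7 in control against 90.9, 98.5 and 96.4 with Wls fl/fl (0.32, limma adjusted p = 0.194). Cxcr4 was 94.2, 121 and 80.4 against 124, 139 and 122.6 (0.40, limma adjusted p = 0.192). In both genes the groups were apart by a narrow margin. Ccr1, the receptor of Ccl6 and Ccl9, had overlapping groups, with control values spread from 27.7 to 86.9 and Wls fl/fl values from 82.5 to 89.7 (0.75, limma adjusted p = 0.261). Cxcr5 was the single tested gene with all Wls fl/fl libraries below control, at 22.2, 22.1 and 21.7 against 15.9, 12.6 and 16.4 (-0.53, limma adjusted p = 0.284).

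The atypical receptor Ackr2, a scavenger of inflammatory CC chemokines, was 22.2, 37.4 and 39.1 in control against 61.7, 58.5 and 58.3 with Wls fl/fl. The groups did not overlap, and the change was 0.88 (SE 0.23, limma adjusted p = 0.063). Ackr4, which clears Ccl19, Ccl21 and Ccl25, was 155, 97.6 and 86.9 against 174, 151 and 164, and the groups overlapped through control replicate 1. Its change was 0.56 (limma adjusted p = 0.148; edgeR 0.74, adjusted p = 0.0024). Exons of Ackr4 overlap 479 bases of Acad11 on the other strand, and whether the counting used strand is not given in the sources used here. For Acad11 the difference was 0.06 (SE 0.12, limma adjusted p = 0.816). Ccrl2, which presents chemerin, was 155, 108 and 114 against 97.9, 152 and 139, a change of 0.04.

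Over the 26 tested genes, 23 had a positive difference, against 53.2% of all genes tested, and the median was 0.55 against 0.02 over all genes. With TMM or upper-quartile scaling, edgeR or limma-voom, or without control replicate 1, the number of positive differences was 21 to 23 of 26. In the DESeq2 fit, which covered every gene with a read, it was 43 of 59. All 3 Wls fl/fl libraries were above all 3 control libraries in 12 genes (13.9% of all genes tested) and below them in 1 (12.6%). The 12 were 8 ligands and 4 receptors. At an unadjusted p under 0.05 there were 14 genes, all higher (10.5% of all genes tested were higher at that level). Over the 24 genes left without Ccl3 and Cxcl13, all with a control mean of 10 or more, 21 had a positive difference with a median of 0.53, against 52.4% and 0.01 over all genes with such a control mean. Of these 24, 11 had groups apart with Wls fl/fl higher (13.6% of those genes), 12 were higher at an unadjusted p under 0.05 (10.3%), edgeR called 10 (5.6%) and limma 3 (2.44%), all higher. Adjusted p were kept from the fits over all genes tested, so this tally is not a separate test of the called genes. The count of called genes depended on the test: edgeR called 12 of 26, all higher (5.73% of all genes called higher), limma-voom called 10 (5.67%), and limma at an adjusted p under 0.1 called 8 (4.54%). DESeq2, fitted to every gene with a read, called 5 (3.2% of the genes to which it gave an adjusted p). The main count was 3. It stayed at 3 with TMM (2.24%) or upper-quartile scaling (2%), a pseudocount of 0.5 (2.43%) or 5 (2.63%), no filter (1.19%) or a mean of 50 or more (4.23%). It also depended on single libraries. Leaving out control replicates 1, 2 and 3 in turn gave 13 (6.57%), 6 (3.11%) and 1 (0.754%), and leaving out Wls fl/fl replicates 1, 2 and 3 gave 2 (1.24%), 2 (0.625%) and 1 (0.482%). With both replicates 3 left out edgeR called 1 (0.173%) and limma called 0 (0%). The authors' deposited table called 5 of the 15 genes to which it gave an adjusted p, namely Ccl6, Ccl9, Cxcl1, Cxcl2 and Ackr4, all higher (3.36% of its genes).

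**Figure D3:**
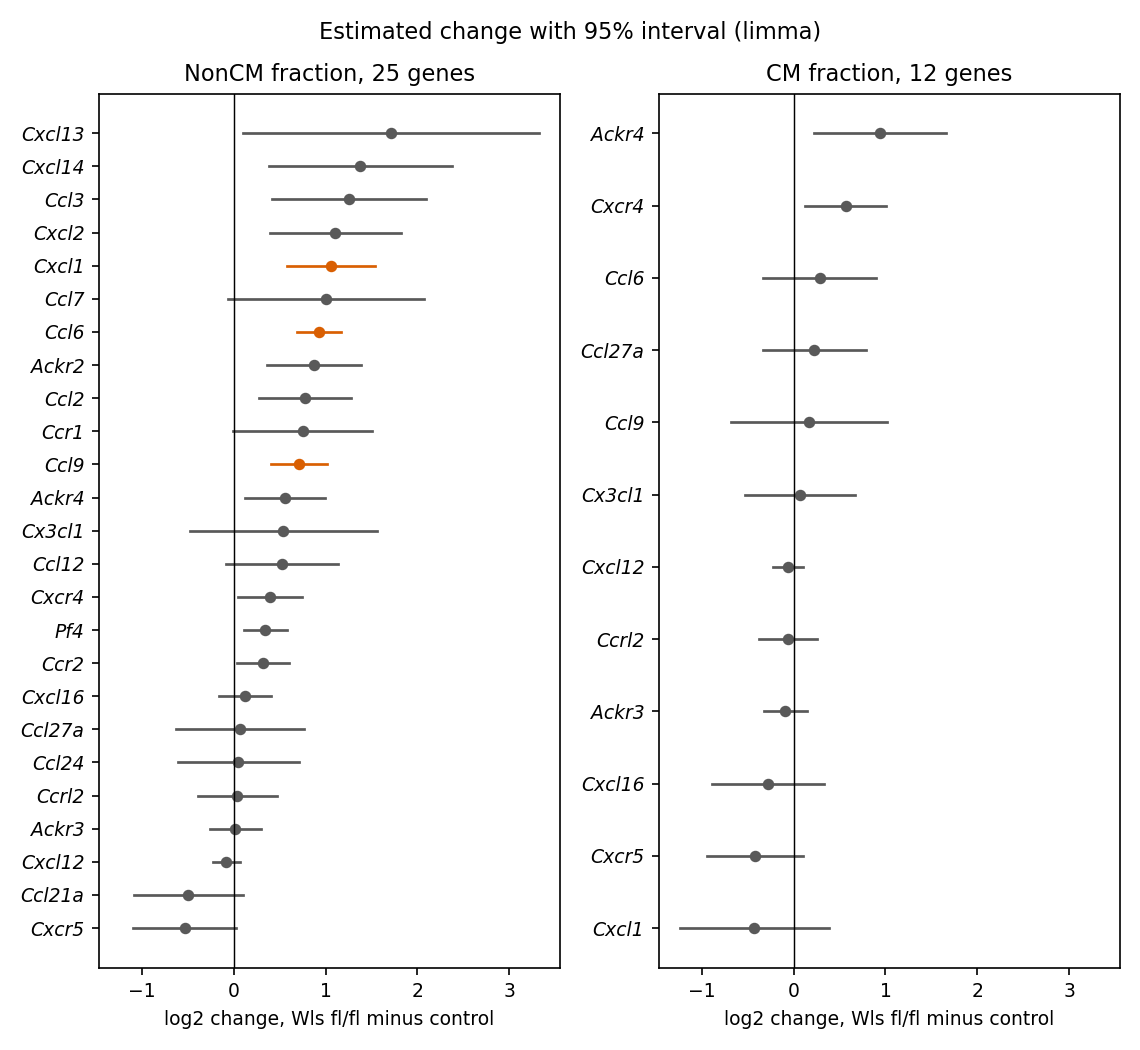
Estimated log2 change, Wls fl/fl minus control, with its 95% interval from limma for 25 of the 26 genes tested in NonCM (left) and the 12 tested in CM (right); orange marks the 3 called genes. The called genes Ccl6, Ccl9 and Cxcl1 have intervals above 0, and in CM 6 of 12 estimates are above 0.

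Members were put in 1 group where each lay within 200 kb of the next on a chromosome. The second group on chromosome 11 held Ccl5, Ccl9, Ccl6, Ccl3 and Ccl4 in that order, and 3 of its 5 genes were tested, with changes of 0.71, 0.92 and 1.25 for Ccl9, Ccl6 and Ccl3, the last of which was tested only through its level in the Wls fl/fl libraries. The group on chromosome 5 held 7 genes from Cxcl5 to Cxcl2, and its 3 tested genes had changes of 0.35 (Pf4), 1.06 (Cxcl1) and 1.11 (Cxcl2). The first group on chromosome 11 held 6 genes from Ccl2 to Ccl1, with 3 tested and none called by limma, while edgeR called Ccl2 (adjusted p = 0.0309). Genes of a group share a locus and were not treated as replicates.

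**Figure D4:**
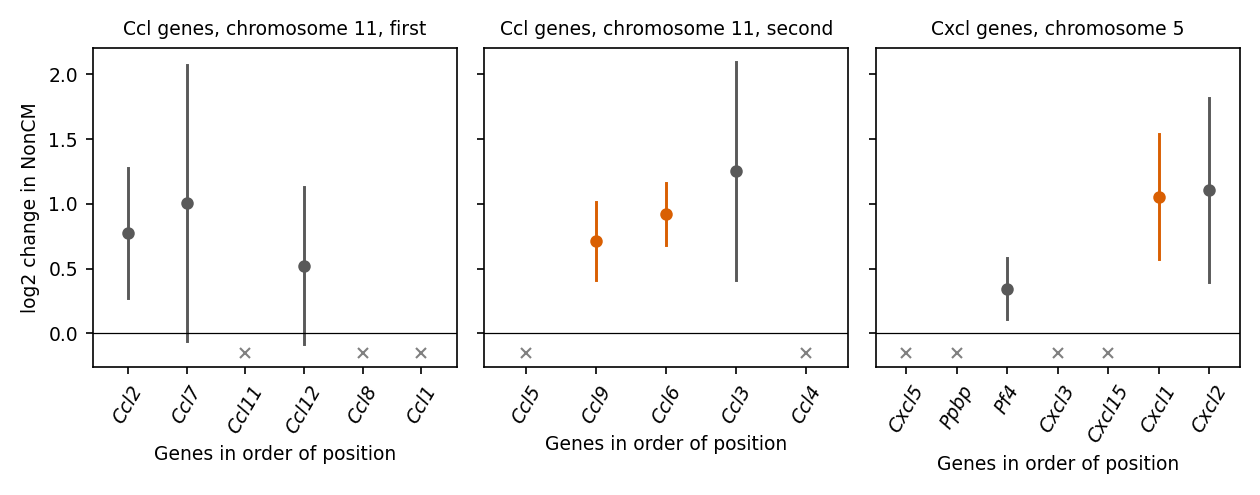
Estimated log2 change in NonCM with its 95% interval for neighbouring members in order of position (not to scale), with called genes in orange and crosses below the zero line for genes not tested. The called genes Ccl9 and Ccl6 are adjacent, and Cxcl1 lies beside Cxcl2, which was not called.

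The kappaB letters described above were found in 6 of the 20 tested NonCM genes that had a RefSeq promoter. The changes of these 6 were 1.11 (Cxcl2), 1.06 (Cxcl1), 0.88 (Ackr2), 0.71 (Ccl9), 0.07 (Ccl27a) and 0.04 (Ccrl2). In the 14 without a match the changes ran from -0.49 to 1.71, and Ccl6 was among them. Genes with and without the letters thus covered overlapping ranges.

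Markers of several cell types differed between the NonCM groups together with these genes. Calls in this paragraph are by limma unless edgeR is named. Over all genes tested, limma called 2.47% higher and 4.51% in either direction, and edgeR called 5.73% higher. Of 15 macrophage markers, all tested, 1 was called higher (Cd68, 0.47, limma adjusted p = 0.0229; edgeR called 7) and 14 had a positive difference, with a median of 0.33. Their summed level was 0.125% to 0.161% of all values in control against 0.174% to 0.193% with Wls fl/fl. Of 7 tested monocyte markers 2 were called higher, Chil3 (3.09, limma adjusted p = 0.0103) and Plac8 (1.88, 0.027), and the sum was 0.0381% to 0.0471% against 0.0588% to 0.0611%. By edgeR 4 monocyte markers were called higher. Of 9 tested neutrophil markers 1 was called higher (Ltf, 2.73, limma adjusted p = 0.0472; edgeR called 6), and the sum was 0.0022% to 0.0024% against 0.0033% to 0.0135%. All 9 had a positive difference, with a median of 2.14. Fibroblast markers had 7 of 10 called higher (8 by edgeR) and a sum of 1.22% to 1.29% against 1.71% to 1.80%. Cardiomyocyte markers had 9 of 12 called lower (11 by edgeR) and a sum of 7.01% to 7.67% against 6.04% to 6.27%. Of 6 tested epicardial markers all had a positive difference, with a median of 0.61, and 1 was called higher (Upk1b, 1.29, limma adjusted p = 0.0169; edgeR called 5). Their sum was 0.00647% to 0.0120% in control against 0.0138% to 0.0152% with Wls fl/fl, and the groups were apart. Of 10 blood endothelial markers 8 had a negative difference and 1 was called lower (Emcn, -0.29, limma adjusted p = 0.0322; edgeR called 2), with a sum of 0.241% to 0.252% against 0.225% to 0.233%. Of 5 tested mast cell and platelet markers 1 was called higher (Cpa3, 0.61, limma adjusted p = 0.0447; edgeR called 2). Of 5 lymphatic endothelial markers 1 was called lower (Prox1, -0.42, limma adjusted p = 0.0129; edgeR called 2), with a lymphatic sum of 0.0193% to 0.0222% against 0.0164% to 0.0171%. The 9 lists above were those whose sums were apart between genotypes, and no marker of them was without a read in NonCM. The sums of dendritic cell, T and NK cell, B cell, pericyte and smooth muscle, and red blood cell markers overlapped. In those lists limma called only Abcc9, a pericyte and smooth muscle marker, lower. By edgeR, 1 dendritic cell marker was called higher and 2 pericyte and smooth muscle markers lower. The part of any of these cell types in the chemokine differences was not tested.

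Set against the summed macrophage markers of the same library, Ccl6 was 2.83%, 2.75% and 2.47% in control against 4.07%, 4.10% and 4.12% with Wls fl/fl, without overlap. Cxcl1 was 0.553%, 0.756% and 0.738% against 0.953%, 1.28% and 1.21%, also without overlap. Ccl9 was 2.83%, 2.33% and 2.15% against 3.63%, 2.79% and 3.23%, and the groups overlapped through control replicate 1. Cxcl12 was 17.4%, 14.7% and 16.6% against 11.7%, 12.5% and 12.8%, with all Wls fl/fl libraries lower. The marker sum itself averaged 9578 in control against 11827 with Wls fl/fl, and Cxcl12 values not divided by it overlapped. Among other genes, Ackr2, Ccl2, Ccl3 and Cxcl14 were apart and higher on this scale, and Cxcr5 was apart and lower. Ccr2 and Pf4 overlapped on this scale, with means of 0.804% and 0.809% for Ccr2 and 1.87% and 1.89% for Pf4. Mrc1, Csf1r and Cd163 made the largest parts of the marker sum, with control means of 2202, 1822 and 1433. How many of all genes had groups apart on this scale was not counted. The part of macrophage content in these differences was not tested.

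**Figure D5:**
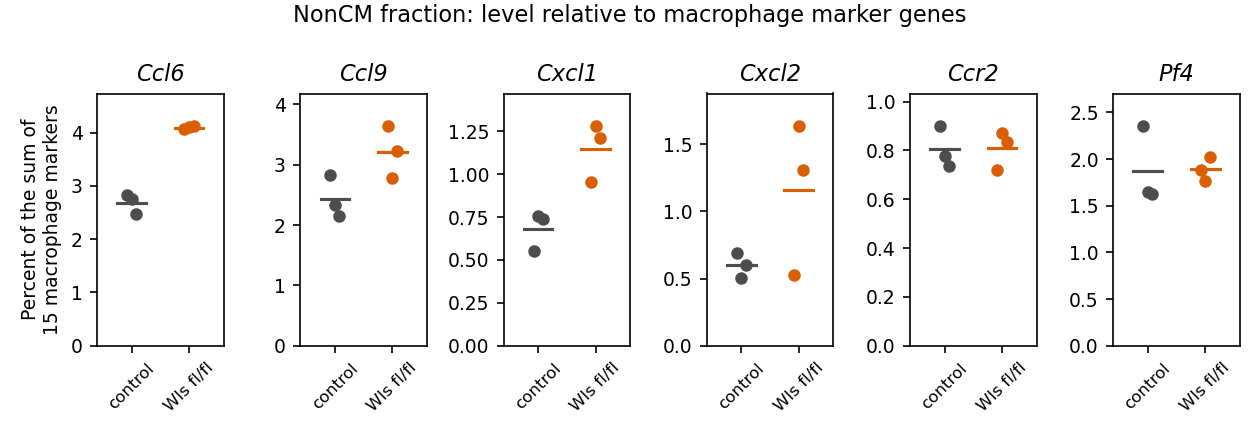
Level of 6 genes in each NonCM library as a percent of the summed level of 15 macrophage marker genes in that library, with bars for group means and axes from 0. The groups are apart for Ccl6 (2.47% to 2.83% against 4.07% to 4.12%) and Cxcl1 and overlap for Ccl9, Cxcl2, Ccr2 and Pf4.

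Genes around the chemokine system were described from 6 lists, with calls by limma unless edgeR is named. Of 36 tested genes of chemokine receptor signalling 1 was called higher in NonCM, Dock2, the Rac activator of migrating leukocytes (0.64, SE 0.15, limma adjusted p = 0.0415), and none lower, with a median of 0.17. Of 30 NF-kappaB and inflammatory regulators 1 was called higher, the TNF receptor Tnfrsf1b (0.36, SE 0.07, limma adjusted p = 0.0315), and the median was 0.17. Of 12 genes of the interferon gamma axis none was called higher by limma and 1 lower, the receptor chain Ifngr2 (-0.29, SE 0.06, limma adjusted p = 0.0252), whereas edgeR called 3 higher and 1 lower. Of 18 other chemoattractants and their receptors 1 was called higher, the complement receptor C3ar1 (0.40, SE 0.08, limma adjusted p = 0.0305), and Cx3cr1, the receptor of Cx3cl1, was at -0.16 (limma adjusted p = 0.318). These shares can be read against the 4.51% called among all genes.

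Chemokine processing and presentation, a list of proteases and of heparan sulphate carriers that cut or hold chemokines, had 6 of 26 tested genes called higher and 1 lower. The proteases Mmp2 (0.35), Mmp12 (1.70) and Mmp14 (0.40) were called higher, with limma adjusted p of 0.00388, 0.0108 and 0.0113, and Mmp12 averaged 11.1 ± 0.291 in control against 39.1 ± 9.67 with Wls fl/fl (SD, n = 3 each). The other 3 called higher were Cd44, Sdc2 and Sdc3, and the gene called lower was Gpc1. Of 18 leukocyte adhesion genes 2 were called higher, the integrin chains Itgb2 (1.09, SE 0.19, limma adjusted p = 0.0187) and Itga4 (0.51, SE 0.09, limma adjusted p = 0.016). In CM no gene of these 6 lists was called in either direction.

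In the CM fraction no chemokine or receptor gene was called. Of the 64 genes 12 had a mean of 10 or more, all among the 26 tested in NonCM, and 0 of 12 were called by limma, against 0.0921% of all 11944 genes tested. The count was also 0 by edgeR (0.1%), limma-voom (0.142%) and DESeq2 (0.238%) and in the other alternatives run, in which 0.0167% to 0.176% of all genes were called. At an unadjusted p under 0.05 there were 2 (8.74% of all genes tested). Of the 12, 6 had a positive and 6 a negative difference, and the median was 0.00.

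Ackr4 was 6.13, 14.8 and 9.73 in CM control and 16.4, 22.9 and 19.4 in CM Wls fl/fl libraries. It was the single gene whose Wls fl/fl libraries all lay above control (7.97% of all genes tested), with a difference of 0.94 (SE 0.33, limma adjusted p = 0.452). Cxcr4 was 42.9, 30.9 and 35.0 against 61.1, 62.5 and 40.8, with overlapping groups (0.57, SE 0.20, limma adjusted p = 0.452). Cxcr5 was 21.5, 22.2 and 17.5 against 15.3, 13.5 and 16.2, and all Wls fl/fl libraries lay below control (7.05% of all genes tested), as they did in NonCM (-0.42, SE 0.24, limma adjusted p = 0.659). The labels do not say which CM and NonCM libraries share a heart, so the Cxcr5 values of the 2 fractions may not be independent. Some Cxcr5 counts may also come from Bcl9l, which overlaps its exons on the other strand.

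The ligands that rose in NonCM gave no call in CM. Cxcl1 was 13.3, 14.8 and 9.73 against 7.05, 15.6 and 6.47 (-0.43, SE 0.37, limma adjusted p = 0.776), and its groups overlapped. Ccl6 averaged 13.05 ± 2.25 against 16.2 ± 3.45 (0.29) and Ccl9 10.1 ± 4.44 against 10.9 ± 2.92 (0.17), where SD is over n = 3 libraries. Cxcl12 was at -0.06, with a 95% interval of -0.23 to 0.10, and Ackr3 at -0.09, with an interval of -0.33 to 0.15. The remaining tested genes lay between -0.28 (Cxcl16) and 0.23 (Ccl27a), with Ccrl2 at -0.06 and Cx3cl1 at 0.07.

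Whether the genotype difference itself differed between fractions was tested as an interaction term, with edgeR on all 12 libraries together. Of 24 genes tested, 0 were called, against 1.42% of all 13131 genes. The lowest edgeR adjusted p was 0.106, for Pf4, whose difference was 1.47 larger in NonCM than in CM on the log2 scale. Cxcl1 followed, with 1.27 and an edgeR adjusted p of 0.136. These were the 2 genes at an unadjusted p under 0.05 (14% of all genes tested). The Pf4 term also holds a lower mean in CM, where Pf4 was too low to be tested alone (mean value 7.49). Its CM values were 15.3, 4.94 and 9.73 in control against 5.87, 5.21 and 3.88 with Wls fl/fl, and the groups overlapped. With limma-voom the lowest adjusted p was 0.116. For Ccl6 the term was 0.62 (edgeR adjusted p = 0.417) and for Ccl9 0.61 (edgeR adjusted p = 0.648). Calls in NonCM and none in CM therefore do not show that the response differed between the fractions.

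Of the 64 genes 38 had a mean under 10 in both tables and were not tested. In CM 15 genes had no read in any of the 6 libraries, which allows up to 0.0765 RPM, and 37 had reads but too few to test. In NonCM 5 genes had no read (Ccl1, Ccl19-ps1, Ccl20, Ccl21b and Cxcr1), which allows up to 0.0625 RPM, and 33 had a mean under 10. These limits cover counting error only. Among the low NonCM genes Ccl8, a further monocyte attractant, had 0, 6 and 4 reads in control against 12, 16 and 14 with Wls fl/fl, and none in CM. Ackr1, the red cell and venular chemokine carrier, had 1, 2 and 4 against 11, 13 and 9, although 25.7% of its exon bases are shared with Cadm3. Cxcl9 was higher in every Wls fl/fl library of both fractions after normalization, at 0, 3 and 4 against 8, 5 and 7 reads in NonCM and 4, 2 and 4 against 8, 6 and 7 reads in CM. In NonCM this order rests on the 0 of control replicate 1. There 1 read would equal a value of 5.54, above the Wls fl/fl values of 5.09, 3.33 and 5.23. How many of all low genes had groups apart was not counted. The shallow NonCM control replicate 1 holds most of the zeros. The other low genes included the interferon-induced ligand Cxcl10, with a mean value of 3.22 in NonCM, the T cell attractant Ccl5, with 1.82, and the T cell receptors Cxcr3 and Ccr7, with 2.35 and 2.72.

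The eotaxin Ccl11 (mean value 9.59), the thymic ligand Ccl25 (9.19) and the eosinophil receptor Ccr3 (8.78) were just under the limit of 10 in NonCM, and Ccl27a (12.4) and Ccl3 (11.4) were just above it. When every gene with a read was tested, the number called in NonCM stayed at 3, the same 3 genes.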

How the data were processed

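Gene-level RNA sequencing values of 12 libraries in 4 groups of 3 were used, with groups taken from the labels' genotype and cell fraction. The submitters' processing notes name STAR, DESeq2 and the build mm10, while the annotation, counting tool and strand setting were not given in these sources. Each deposited table holds 1 signal column per library, per the file headers. Its values are whole reads divided by 1 factor per library, as the values themselves show, and are called normalized read counts here. The deposited tables also hold the authors' log2 fold changes, standard errors, p-values and adjusted p-values, used only where the deposited table is named. Whole reads were recovered for 100% of the values checked, which were those above 0 and under 1000 reads (tolerance 0.01 reads). Larger values were rounded to whole reads without this check.

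The chemokine and receptor genes and all gene lists were chosen with earlier results of these data known. Under R 4.3.3, the main test was the trend version of limma 3.58.1. It used log2(value + 1), kept genes whose mean reached 10, ran over each whole table, and called genes at a Benjamini-Hochberg adjusted p under 0.05. Fractions were compared, and the interaction tested, in a joint edgeR 4.0.16 quasi-likelihood fit of recovered reads. DESeq2 1.42.0, limma-voom, other scalings, filters and pseudocounts, and omitted libraries were alternatives, and the code was tested on simulated data. The edgeR fit without replicate 3 and the tally by control mean were chosen after seeing the data. With 3 against 3 libraries an exact permutation test cannot go below p = 0.1, so none was run. Full values are given for called genes and the 4 others of smallest p per fraction, and up to 3 called members of each pathway list are named by smallest p. Other called list members were named after their values were seen. The values of 1 of the 64 genes, tested in NonCM and included in the counts, are not reported here. Positions, exon lengths and shared 50-base stretches came from GENCODE M21.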

Additional observations from a re-analysis of the deposited data

How the results depend on the processing

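No paired analysis was possible because the library numbers do not recur between groups and the labels do not say which libraries share a heart. In CM and in the interaction, 0 chemokine or receptor genes were called under every alternative run. In NonCM the 3 called genes remained 3 in number with pseudocounts of 0.5 and 5, without a filter, at a mean of 50, and with either TMM or upper-quartile scaling. Restricting the tally to a control mean of 10 kept the adjusted p of the main fit and could not change these calls. The count was 12 by edgeR, 10 by limma-voom, 5 by DESeq2, 8 at an adjusted p under 0.1, and 1 to 13 when 1 library was left out. Without replicate 3 of both genotypes it was 0 by limma and 1 by edgeR. With the cardiomyocyte marker level as covariate it was 0 and the signs of Cxcl1 (-0.66) and Cxcl2 (-2.18) turned, but no gene in the table was then called, and the marker level itself (14.6 in control, 14.3 to 14.4 in Wls fl/fl libraries, mean log2) did not overlap between genotypes, so the covariate and the genotype cannot be told apart. Of 174 single-gene values under alternatives, 148 kept their direction and neither gained nor lost a call, 14 lost a call, 10 gained one and 2 turned. The 148 include DESeq2 values without an adjusted p and values of CM genes that were not called in the main test. All losses were in the called genes. Of the values of Ccl6, Ccl9 and Cxcl1, 16, 12 and 11 were kept and 2, 6 and 6 lost the call. Depth limits low genes most: in NonCM control replicate 1, Ccl3, Cxcl14 and Cx3cl1 rest on 1 read each. In the same library Ccl2 rests on 3 reads, Cxcr5 and Ackr2 on 4 each and Ccr1 on 5.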
